A study of Mus musculus with 6 samples.

Results

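The genes described here encode subunits of the receptors for glutamate, GABA and acetylcholine (nicotinic type). They were chosen by symbol: every probe set whose single gene symbol belonged to the families Gria, Grid, Grik, Grin, Grm, Gabra, Gabrb, Gabrg, Chrna or Chrnb. Chrna1 of muscle and Chrna9 and Chrna10 of hair cells were left out, as was the scaffold gene Grid2ip. This gave 44 of the 35557 probe sets of the table and 42 of the 19938 genes tested. They were 4 AMPA, 1 delta, 5 kainate, 6 NMDA and 7 metabotropic glutamate receptor genes, 9 GABA-A receptor genes and 10 nicotinic receptor genes. Family members outside these 42 genes enter below only through the marker and partner lists.

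The arrays held RNA of mouse organ of Corti, the strip of hearing epithelium in the cochlea, taken at postnatal day 15 on a mixed C57BL/6J-129/Sv background. The genotypes were Pjvk-/- (knockout, 3 samples) and Pjvk+/+ (wild-type, 3 samples). Pjvk encodes pejvakin, a protein needed for hearing. The labels do not say how the allele inactivates the gene, nor whether a sample is 1 animal or a pool. The p-values below therefore measure the spread between the arrays alone, and part of that spread may be technical.

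Inner hair cells release glutamate onto the endings of the auditory nerve, where AMPA receptors carry the fast signal. NMDA, kainate, delta and metabotropic receptors are found on the same nerve fibres or on the cells around them. Efferent fibres from the brainstem release acetylcholine and GABA onto hair cells and nerve endings. GABA-A receptors are chloride channels built of alpha, beta and gamma subunits, and nicotinic receptors are cation channels built of alpha and beta subunits. Most of these genes are known mainly from neurons. In samples of whole tissue, fewer cells of a type and less RNA per cell cannot be told apart.

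The values are log2 probe set signals of an Affymetrix mouse gene array, as deposited, and a log2 fold change is knockout minus wild-type. Array medians lay between 6.66 and 6.69. Pjvk read 4.42, 4.36 and 4.21 in the knockout and 4.75, 5.06 and 4.96 in the wild-type, a log2 fold change of -0.59 (SE 0.09) that did not pass the test (limma adjusted p = 0.105). It is only a partial check of the labels, because the place of its probes in the allele is unknown here. Neuronal markers were bright in every array: the 18 listed markers had a median at percentile 95.06 of all genes by mean signal. Their mean level lay at 9.49 to 9.61 in the knockout and at 9.54 to 9.59 in the wild-type. The 14 hair cell markers averaged 7.33 to 7.42 in the knockout and 7.23 to 7.36 in the wild-type. Probe sets of 3 Y-linked genes averaged 7.39 to 7.58 in the knockout and 7.65 to 8.05 in the wild-type, so whatever sets the Y-linked signal and the genotype cannot be told apart.

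No receptor subunit passed the test. At an adjusted p under 0.05, which 0.0351% of all genes reached, 0 of the 42 were called, and the lowest adjusted p among them was 0.343 (limma, Chrna2). At an unadjusted p under 0.05, 5 of 42 (11.9%) were found, against 12.4% of all genes. The 5 were Chrna2, Gabrb1, Grm3, Grm6 and Grid1, all higher in the knockout, where 5.74% of all genes were higher and 6.66% lower at that p. All 5 were among the 33 receptor subunits below the median signal of all genes (15.2%). In that range 9.66% of all genes were higher at that p. All 3 knockout values lay above all 3 wild-type values in 3 genes, Chrna2, Grm3 and Grm6, and below them in 0. Of all genes, 6.59% were separated upwards and 11.3% downwards. The largest log2 fold change was 0.29 (Gabrg1, 1.22-fold) and the lowest was -0.20 (Gria2, 1.15-fold). With 3 arrays against 3, an exact two-sided permutation test cannot give a p below 0.1.

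**Figure D1:**
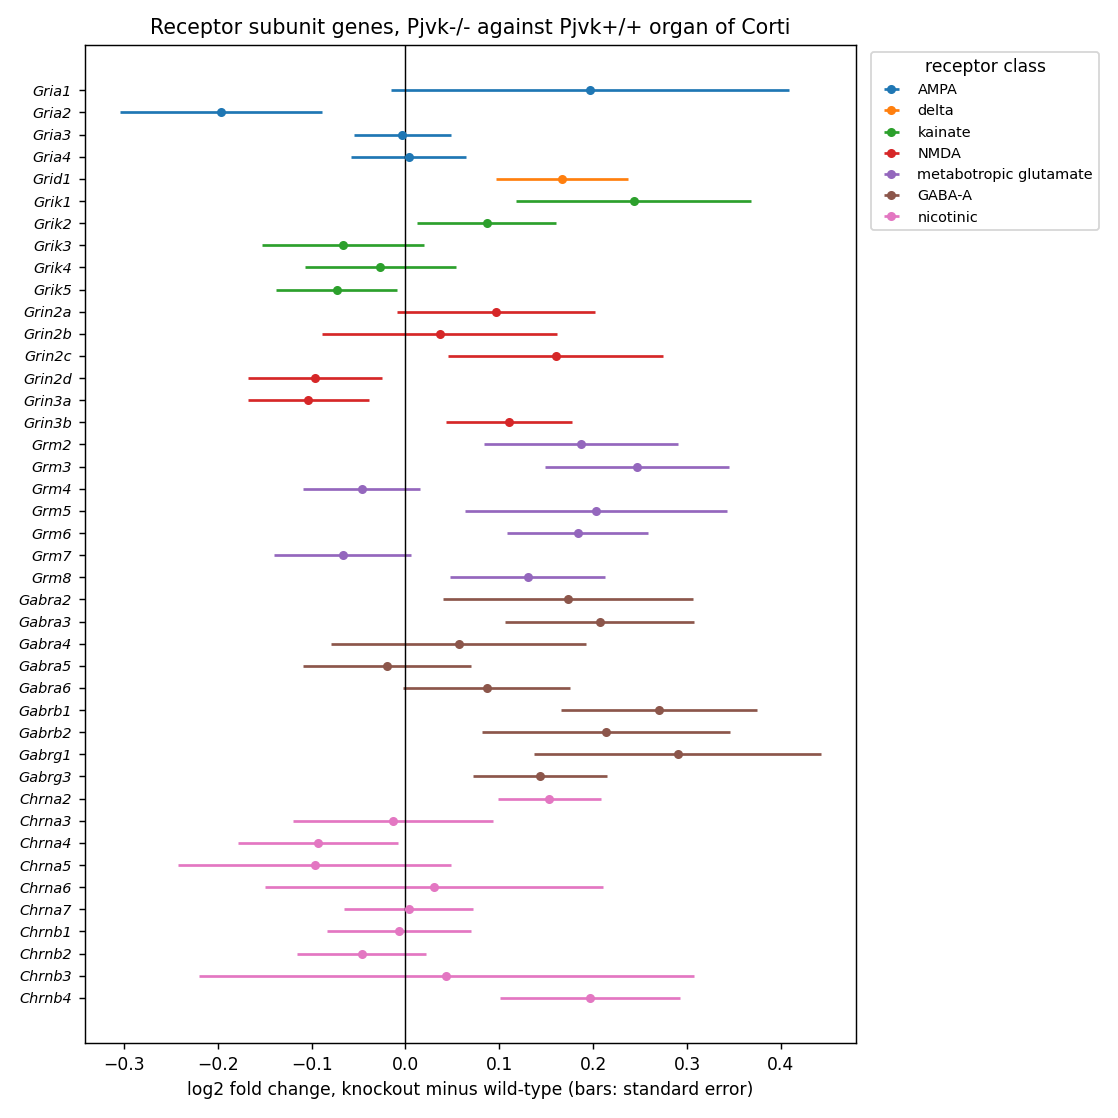
Log2 fold change of the 42 receptor subunit genes, knockout minus wild-type, with bars of 1 standard error from limma (3 arrays per genotype), coloured by receptor class. Points lie between -0.20 (Gria2) and 0.29 (Gabrg1), and 8 of 9 GABA-A genes lie to the right of 0.

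The count of nominal differences depended on single arrays. Without knockout replicate 2, 11 of 42 genes had an unadjusted p under 0.05, all higher in the knockout, against 11.5% of all genes. Without knockout replicate 1, 6 had, against 11.1% of all genes, and of these Chrnb4 and Grid1 were higher and Gria2, Chrna4, Chrna5 and Chrna6 lower. Without knockout replicate 3, Grm3 and Gabrb2 were the only 2, against 8.26% of all genes. None of these fits called a receptor subunit. The genes whose groups were separated numbered 6 to 12 with an array left out, where 24.7% to 33.4% of all genes were.

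For 5 of the genes, the 250 bases before the transcription start are shown as RefSeq gives them on GRCm38.p6, 5′ to 3′ on the gene's strand. Starts of 30 of the 42 genes were matched, 38 starts in all, and Chrna2 was not among the 30. Grm3 and Grm6 are shown because their groups did not overlap, Gria2 because it had the lowest fold change, and Gabrb1 and Gabra4 because they are neighbours on chromosome 5 with unlike values. Gabra4 and the first annotated start of Gabrb1 lie on opposite strands, and that start lies 387 bases inside Gabra4, so for Gabrb1 only the second start is shown. Capitals mark 3 motifs, searched on both strands: the GC box GGGCGG, the core of the NRF1 motif, CGCATGCG, and the TATA box TATAAA.
Grm3, chr5:9725353-9725602, minus strand: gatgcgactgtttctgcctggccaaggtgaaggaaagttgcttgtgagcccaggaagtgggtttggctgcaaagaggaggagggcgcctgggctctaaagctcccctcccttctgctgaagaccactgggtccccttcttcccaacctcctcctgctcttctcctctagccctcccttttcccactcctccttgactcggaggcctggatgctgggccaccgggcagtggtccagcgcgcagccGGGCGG
Grm6, chr11:50850435-50850684, plus strand: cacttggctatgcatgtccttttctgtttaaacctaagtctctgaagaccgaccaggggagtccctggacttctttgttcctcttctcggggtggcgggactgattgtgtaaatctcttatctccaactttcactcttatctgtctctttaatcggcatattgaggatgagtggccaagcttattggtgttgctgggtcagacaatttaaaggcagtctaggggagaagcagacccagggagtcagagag
Gria2, chr3:80802836-80803085, minus strand: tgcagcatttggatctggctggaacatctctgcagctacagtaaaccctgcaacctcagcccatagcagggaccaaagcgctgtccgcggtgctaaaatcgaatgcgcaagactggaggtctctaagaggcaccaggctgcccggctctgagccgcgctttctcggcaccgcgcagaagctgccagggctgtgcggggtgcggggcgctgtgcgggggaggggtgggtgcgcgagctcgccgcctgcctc
Gabrb1, chr5:71699682-71699931, plus strand: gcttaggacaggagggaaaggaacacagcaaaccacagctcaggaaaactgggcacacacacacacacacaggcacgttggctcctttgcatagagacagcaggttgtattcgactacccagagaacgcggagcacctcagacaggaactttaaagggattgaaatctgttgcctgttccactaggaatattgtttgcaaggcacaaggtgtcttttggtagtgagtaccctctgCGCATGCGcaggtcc
Gabra4, chr5:71658309-71658558, minus strand: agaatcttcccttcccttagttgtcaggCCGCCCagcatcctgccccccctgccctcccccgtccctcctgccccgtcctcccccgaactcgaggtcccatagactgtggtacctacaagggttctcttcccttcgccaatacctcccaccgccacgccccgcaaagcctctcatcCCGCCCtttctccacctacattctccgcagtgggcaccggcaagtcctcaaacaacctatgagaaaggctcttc

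Grm3 held a GC box, Gabrb1 an NRF1 core and Gabra4 2 GC boxes, whereas the Grm6 and Gria2 windows held none of the 3 motifs. A GC box stood in 18 of the 38 starts of receptor subunits (47.4%) and in 32.7% of all 32851 starts. The NRF1 core stood in 1 of the 38 (2.63%), against 1.55% of all starts, and a TATA box stood in 5 (13.2%), against 12.4%. The windows differed in CG dinucleotides, from 4 in Grm6 and 6 in Gabrb1 to 8 in Grm3, 12 in Gabra4 and 19 in Gria2, where the median of all starts was 6. A match is a stretch of letters and not a shown binding site.

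Gria2, Gria3 and Gria4 encode AMPA receptor subunits of the auditory nerve synapse. Signals lay close together in both genotypes for Gria3 and Gria4 and less so for Gria1 and Gria2. Gria3 had signals of 10.14, 10.15 and 10.15 in the knockout and 10.18, 10.15 and 10.12 in the wild-type, a log2 fold change of -0.003 (SE 0.05, 95% interval -0.12 to 0.11). Its knockout values all lay inside the wild-type range. Gria4 had 9.73, 9.62 and 9.59 in the knockout and 9.70, 9.62 and 9.61 in the wild-type, a log2 fold change of 0.003 (SE 0.06, 95% interval -0.14 to 0.14). The arrays of the genotypes overlapped in both genes, and neither interval reached beyond 0.14 from 0.

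Gria2 encodes the subunit that keeps AMPA receptors nearly impermeable to calcium. It read 9.09, 8.64 and 8.74 in the knockout and 9.08, 9.00 and 8.98 in the wild-type, or 8.82 ± 0.24 against 9.02 ± 0.05 (SD, n = 3 each). Knockout replicates 2 and 3 lay below every wild-type array and replicate 1 above them all. The log2 fold change was -0.20 (SE 0.11, adjusted p = 0.473 by limma; exact permutation p = 0.4). Without knockout replicate 1 it was -0.33 (SE 0.07, limma adjusted p = 0.295), and without knockout replicate 2 it was -0.105 (limma adjusted p = 0.713). Gria1 read 7.38, 6.38 and 7.00 in the knockout and 6.87, 6.70 and 6.60 in the wild-type. The knockout values spanned the whole wild-type range and more, and the log2 fold change of 0.20 (SE 0.21) lay within that spread. The median of the 4 AMPA genes was 0.00, against -0.01 for all genes.

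**Figure D2:**
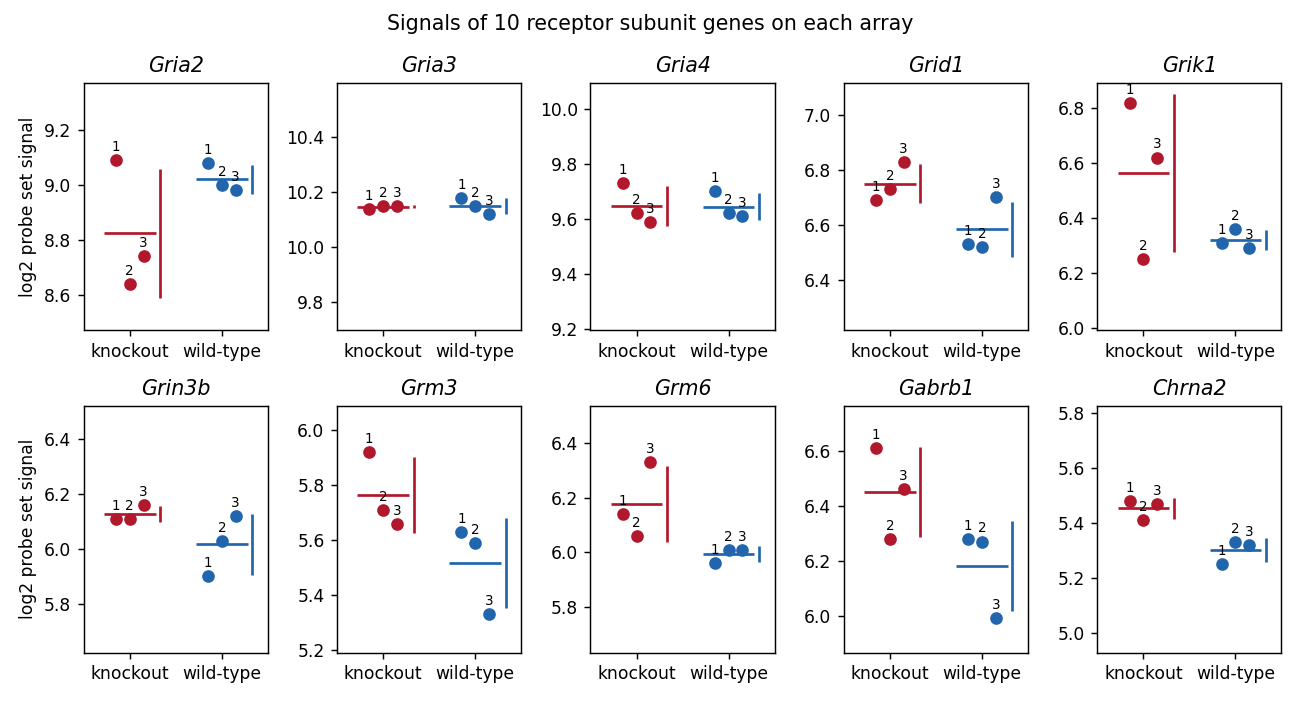
Log2 probe set signal of 10 receptor subunit genes on each array, knockout left and wild-type right. Points are arrays with their replicate number, the horizontal line is the mean and the vertical line the SD (n = 3), and every panel spans 0.9 log2 units. The genotypes are separated in Chrna2, Grm3 and Grm6, while knockout replicate 1 stands above the other 2 knockout arrays in Gria2, Grik1 and Gabrb1.

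The delta receptor gene Grid1 encodes GluD1, a postsynaptic organiser that binds secreted cerebellins and whose loss in mice impairs high-frequency hearing. Its signals were 6.69, 6.73 and 6.83 in the knockout and 6.53, 6.52 and 6.70 in the wild-type. Wild-type replicate 3 reached into the knockout range and the other two wild-type arrays lay below it. The log2 fold change was 0.17 (SE 0.07), which did not pass the test (limma adjusted p = 0.386). Of the 4 cerebellin genes, Cbln1 and Cbln4 were the 2 with an unadjusted p under 0.05, which 12.4% of all genes reached. Cbln1 read 6.45, 6.06 and 6.93 in the knockout and 5.95, 6.06 and 6.04 in the wild-type (log2 fold change 0.46, SE 0.18, limma adjusted p = 0.359). Its difference rested on knockout replicates 3 and 1, since knockout replicate 2 equalled wild-type replicate 2, the highest of its group. Cbln4 differed by 0.27 (SE 0.12, limma adjusted p = 0.390), with no overlap between the genotypes.

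Among the kainate receptor genes, Grik1, Grik2 and Grik3 encode the low-affinity subunits and Grik4 and Grik5 the high-affinity partners. Grik1 read 6.82, 6.25 and 6.62 in the knockout and 6.31, 6.36 and 6.29 in the wild-type. Knockout replicate 2 was the lowest of the 6 arrays and replicates 1 and 3 were the highest. The log2 fold change was 0.24 (SE 0.13, limma adjusted p = 0.451), 0.40 without knockout replicate 2 and 0.12 without knockout replicate 1. The other 4 genes lay between -0.07 (Grik5, SE 0.06, and Grik3, SE 0.09) and 0.09 (Grik2, SE 0.07), with Grik4 at -0.03 (SE 0.08). The class median was -0.03.

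Of the NMDA receptor genes, the glutamate-binding subunits Grin2a, Grin2b, Grin2c and Grin2d had log2 fold changes of 0.10 (SE 0.11), 0.04 (SE 0.13), 0.16 (SE 0.11) and -0.10 (SE 0.07). The differences of the glycine-binding subunits had opposite signs. Grin3b read 6.11, 6.11 and 6.16 in the knockout and 5.90, 6.03 and 6.12 in the wild-type, so that only wild-type replicate 3 reached the knockout range (log2 fold change 0.11, SE 0.07, limma adjusted p = 0.518). Grin3a read 6.26, 6.26 and 6.40 in the knockout and 6.34, 6.44 and 6.45 in the wild-type (log2 fold change -0.10, SE 0.06, limma adjusted p = 0.522). Neither difference exceeded the spread between arrays by the test, and that of Grin3b was 0.05 without wild-type replicate 1. The difference for Grin2c rested on wild-type replicate 1, which read 6.35 where the other 5 arrays lay between 6.67 and 6.86.

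In the knockout 5 of 7 metabotropic glutamate receptor genes were higher and 2 lower, and the median difference was 0.18, or 0.11 without knockout replicate 3. The genes of group II, Grm2 and Grm3, inhibit adenylyl cyclase. Grm3 read 5.92, 5.71 and 5.66 in the knockout and 5.63, 5.59 and 5.33 in the wild-type. The genotypes did not overlap, although knockout replicate 3 lay just above wild-type replicate 1. The log2 fold change was 0.25 (SE 0.10, limma adjusted p = 0.367; exact permutation p = 0.1, the smallest possible), and 0.15 without wild-type replicate 3. Grm2 differed by 0.19 (SE 0.10).

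Group III holds Grm4, Grm6, Grm7 and Grm8. Grm6, known as the receptor of retinal ON bipolar cells, read 6.14, 6.06 and 6.33 in the knockout and 5.96, 6.01 and 6.01 in the wild-type. The genotypes did not overlap, and the log2 fold change was 0.18 (SE 0.08, limma adjusted p = 0.378; exact permutation p = 0.1), and 0.11 without knockout replicate 3. Grm8 differed by 0.13 (SE 0.08), Grm4 by -0.05 (SE 0.06) and Grm7 by -0.07 (SE 0.07). Grm5, of the group coupled to phospholipase C, read 6.74, 6.42 and 7.03 in the knockout and 6.58, 6.62 and 6.38 in the wild-type (log2 fold change 0.20, SE 0.14). Its knockout arrays spread more widely than the 2 genotypes differed.

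In the knockout 8 of 9 GABA-A receptor genes were higher, the median difference was 0.17, and none passed the test. The median was 0.11 without knockout replicate 1, 0.11 without wild-type replicate 2 and 0.12 without wild-type replicate 1. The alpha subunits lay between -0.02 (Gabra5, SE 0.09) and 0.21 (Gabra3, SE 0.10), with Gabra2 at 0.17 (SE 0.13), Gabra4 at 0.06 (SE 0.14) and Gabra6, known from cerebellar granule cells, at 0.09 (SE 0.09). All 4 beta and gamma subunits were higher: Gabrg1 by 0.29 (SE 0.15), Gabrb1 by 0.27 (SE 0.10), Gabrb2 by 0.21 (SE 0.13) and Gabrg3 by 0.14 (SE 0.07). Gabrb1 read 6.61, 6.28 and 6.46 in the knockout and 6.28, 6.27 and 5.99 in the wild-type (limma adjusted p = 0.357). Knockout replicate 2 equalled wild-type replicate 1, and the other knockout arrays lay above all wild-type arrays. Without wild-type replicate 3 the log2 fold change of Gabrb1 was 0.18.

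Gabrb2 was the 1 gene with several probe sets. The 3 differed by 0.21 (SE 0.13), 0.38 (SE 0.20) and 0.02 (SE 0.18), so they agreed in sign and not in size. The GABA-A genes are arranged in groups along the chromosomes. Gabrg1, Gabra2, Gabra4 and Gabrb1 lie in a row on chromosome 5 with at most 3 coding genes between any pair, and all 4 were on the higher side (0.06 to 0.29). Gabrb2 and Gabra6 adjoin on chromosome 11, and Gabrg3 and Gabra5 on chromosome 7. Whether the signals of Gabra4 and Gabrb1, which overlap at their starts, are separate was not assessed.

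The 10 nicotinic receptor genes were balanced, 5 higher and 5 lower, and their median difference was -0.002. Chrna2 read 5.48, 5.41 and 5.47 in the knockout and 5.25, 5.33 and 5.32 in the wild-type, or 5.45 ± 0.04 against 5.30 ± 0.04 (SD, n = 3 each). The genotypes did not overlap and the arrays of each lay close together. The log2 fold change was 0.15 (SE 0.06, limma adjusted p = 0.343; exact permutation p = 0.1). Chrnb4, of the autonomic ganglion receptor, differed by 0.20 (SE 0.10). Its neighbours on chromosome 9, Chrna3 and Chrna5, were at -0.01 (SE 0.11) and -0.10 (SE 0.15). The pair Chrna4 and Chrnb2, which form the main receptor of the brain, were at -0.09 (SE 0.09) and -0.05 (SE 0.07), and Chrna7, which forms receptors by itself, at 0.003 (SE 0.07).

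Chrna6 and Chrnb3, which adjoin on chromosome 8 and can join in 1 receptor, had the same outlying array. Chrna6 read 6.05, 5.28 and 5.37 in the knockout and 5.45, 5.68 and 5.48 in the wild-type. Chrnb3 read 6.81, 5.64 and 6.02 in the knockout and 5.94, 5.97 and 6.43 in the wild-type. In both genes knockout replicate 1 was the highest and knockout replicate 2 the lowest of the 6 arrays, and the log2 fold changes of 0.03 (SE 0.18) and 0.04 (SE 0.26) were smaller than their errors. Chrnb1, the beta subunit of the muscle receptor, was at -0.007 (SE 0.08). Its partner Chrna1, not counted among the 42 genes, differed by 0.39 (SE 0.07, limma adjusted p = 0.139). Of 15 skeletal muscle markers, Chrna1 among them, 13 were higher in the knockout (median 0.14). All 15 lay below the median signal (percentiles 16.3 to 48.63), where 64.4% of all genes were higher. At an unadjusted p under 0.05, 7 of the 15 (46.7%) were higher, against 9.66% of all genes in that range. The mean of those 15 markers lay at 6.13 to 6.29 in the knockout and at 6.00 to 6.08 in the wild-type, and its part in the results here was not tested.

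Averaged over the receptor subunits, knockout arrays differed among themselves more than the genotypes did. Knockout replicate 1 was the highest of the 6 arrays for 20 of 42 genes (47.6%), against 17.0% of all genes and 18.8% of the genes below the median signal. Knockout replicate 2 was the highest for 0 and the lowest for 15 (35.7%), where it was the lowest for 17.2% of all genes. The mean deviation of the 42 genes from their 6-array mean was 0.13, -0.09 and 0.07 in the knockout and -0.05, -0.01 and -0.05 in the wild-type. Knockout replicates 1 and 2 thus lay farther apart than the genotypes did. They lay at 0.20 and -0.19 in the AMPA class, at 0.19 and -0.14 in the nicotinic class and at 0.22 and -0.09 in the GABA-A class. The gap was narrower among kainate genes, at 0.06 and -0.07, metabotropic genes, at 0.07 and -0.04, and NMDA genes, at -0.01 and -0.06, and it ran the other way in Grid1, at 0.02 and 0.06. Knockout replicate 3 was the highest in the NMDA and metabotropic classes, at 0.12 and 0.15, and in Grid1, at 0.16. Without Gria1, Chrna6 and Chrnb3, the most variable of the genes, knockout replicate 1 was still the highest for 17 of 39.

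**Figure D3:**
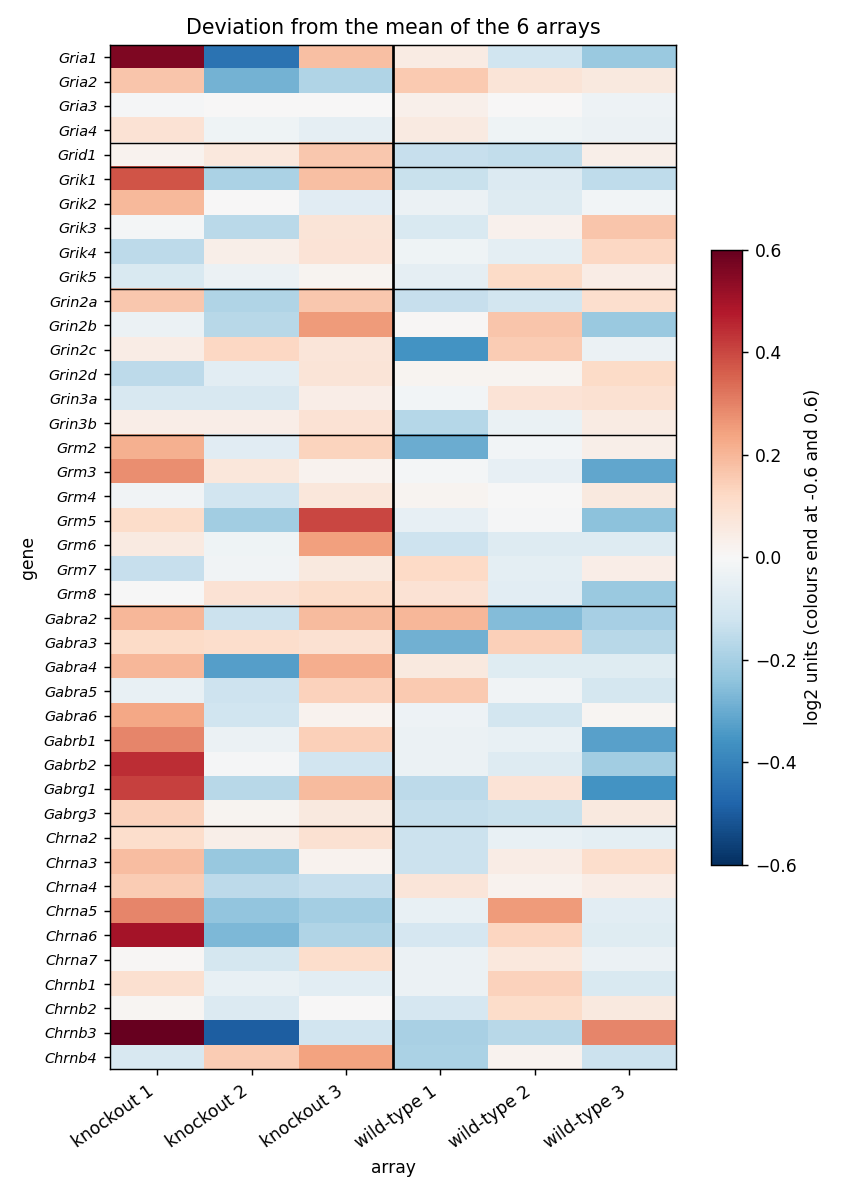
Deviation of each receptor subunit gene from its mean over the 6 arrays, in log2 units, with knockout arrays left of the black line and wild-type arrays right of it. Rows are ordered by receptor class, and the colours end at -0.6 and 0.6. Knockout replicate 1 is the reddest column and knockout replicate 2 the bluest.

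Some genes of neurons and of brain tissue followed the same arrays and others did not. Syt1, the calcium sensor of synaptic vesicles, read 8.48, 7.02 and 7.34 in the knockout and 7.43, 7.46 and 7.58 in the wild-type. The mean deviation of the 18 neuronal markers, Syt1 included, was 0.06, -0.06 and -0.04 in the knockout and 0.04, 0.01 and -0.01 in the wild-type. Knockout replicate 1 was the highest for 4 of the 18 (22.2%), against 17.0% of all genes. Knockout replicate 2 was the lowest for 3 of them (16.7%), against 17.2% of all genes. Among the 11 markers of brain tissue the deviation was 0.12, -0.09 and 0.12 in the knockout and -0.06, -0.02 and -0.07 in the wild-type. Of these 11, knockout replicate 1 was the highest for 3 (27.3%), Aqp4 and Calb1 among them, and knockout replicate 2 the lowest for 3 (27.3%). Aqp4, a water channel of astrocytes and of supporting cells, read 9.69, 8.84 and 9.55 in the knockout and 8.93, 8.91 and 8.72 in the wild-type. Calb1, a calcium buffer of neurons and hair cells, read 8.77, 7.78 and 8.35 in the knockout and 7.71, 7.51 and 7.92 in the wild-type. Knockout replicate 1 was the highest of the 6 arrays in Syt1, Aqp4 and Calb1, and knockout replicate 2 the lowest of them in Syt1. Fat2, the brain tissue gene with the smallest p, had the opposite sign, with 6.99, 6.73 and 6.86 in the knockout below 7.07, 7.15 and 7.00 in the wild-type (log2 fold change -0.21, SE 0.08, limma adjusted p = 0.345). Of the 11 markers 7 were higher and 4 lower, and their percentiles by mean signal ran from 3.09 (Neurod6) to 88.0 (Aqp4), with Tbr1 at 18.96 and Cux2 at 60.94. The part of carried-along tissue in the receptor signals was not tested. Syt1, Aqp4, Calb1, Fat2 and, above, Chrna1 were singled out after their values were seen.

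The sign of the differences went with signal level. Of the 42 genes, 33 lay below the median signal of all genes, and 25 of these (75.8%) were higher in the knockout, against 64.4% of all genes in that range. Of the 9 above the median, 2 were higher (22.2%), against 27.9% of all genes there. Over all genes, 46.1% were higher. The median log2 fold change of all genes was 0.07 in expression decile 3, which held 10 of the receptor subunits, and -0.04 in decile 10. After the median of its decile was subtracted from each gene, 24 of 42 receptor subunits lay above 0, with a median of 0.04 in place of 0.07. By class, the median was then 0.10 for GABA-A genes (7 of 9 above 0), 0.17 for metabotropic receptors (5 of 7) and -0.03 for nicotinic receptors (2 of 10). The decile step was added once the values were known.

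**Figure D4:**
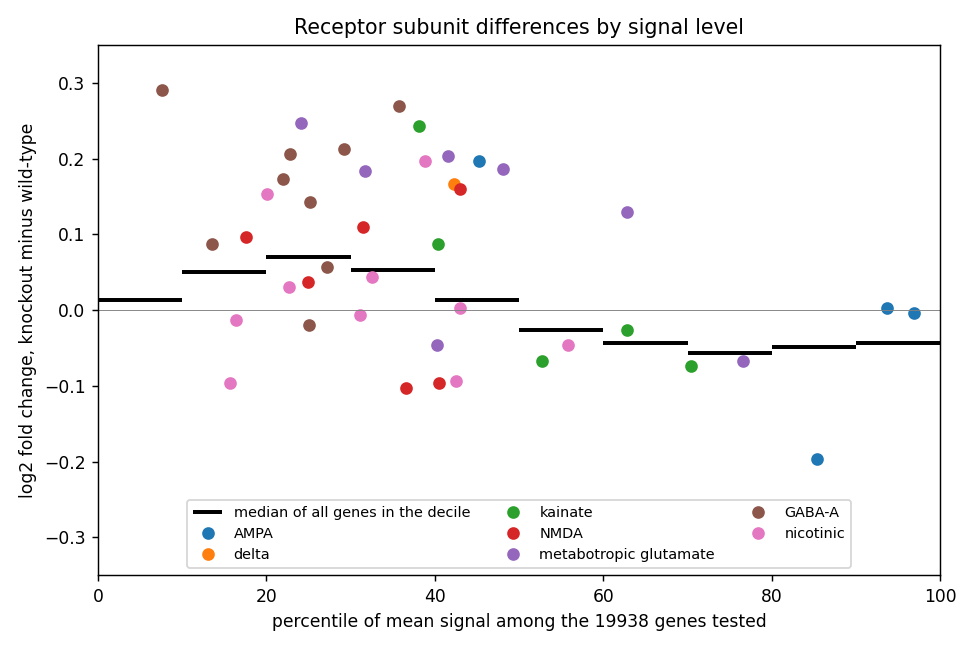
Log2 fold change of the 42 receptor subunit genes, knockout minus wild-type, against the percentile of their mean signal among the 19938 genes tested. Black bars are the median log2 fold change of all genes in each decile of signal, from 0.07 in decile 3 to -0.06 in decile 8. The percentile ranks array signals and not amounts of transcript.

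Around the receptors, no gene of the 7 lists of partner genes was called. Of 19 partners of AMPA and kainate receptors, 10 were higher and 9 lower, with a median of 0.00. At an unadjusted p under 0.05, 3 of the 19 were higher and 1 lower (21.1%), against 12.4% of all genes. Cacng2, which encodes the trafficking protein stargazin, read 8.38, 8.33 and 8.30 in the knockout and 8.47, 8.48 and 8.61 in the wild-type (log2 fold change -0.18, SE 0.06, limma adjusted p = 0.318). The genotypes were separated, as they were in the opposite direction in Gsg1l, another AMPA receptor partner (0.18, SE 0.06). Shisa9 differed by 0.22 (SE 0.07). Of 14 postsynaptic scaffold genes, none had an unadjusted p under 0.05, which 12.4% of all genes reached, and the median was -0.03.

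The glutamate supply list and the nicotinic partner list held 1 and 2 genes with an unadjusted p under 0.05. That p was reached by 12.4% of all genes. Slc17a6, the vesicular glutamate transporter VGLUT2, read 10.01, 9.72 and 9.78 in the knockout and 10.19, 10.07 and 10.09 in the wild-type (log2 fold change -0.28, SE 0.08, limma adjusted p = 0.277). The genotypes did not overlap, as was the case for 1 of the 8 genes of glutamate supply and removal (12.5%). Of all genes, 17.8% did not overlap in either direction, and 11.3% of all genes were separated downwards. Ache, the esterase that ends acetylcholine signals, read 8.22, 8.18 and 8.09 in the knockout and 8.50, 8.41 and 8.36 in the wild-type (log2 fold change -0.26, SE 0.06, limma adjusted p = 0.214). Lynx1, a membrane-anchored inhibitor of nicotinic receptors, differed by -0.21 (SE 0.07), also without overlap. These 2 were the genes with an unadjusted p under 0.05 among the 10 of the nicotinic list, whose median was 0.02.

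Among 14 other inhibitory receptor subunits, 11 were higher and 3 lower, with a median of 0.13. Their median percentile by mean signal was 19.11, and 70.0% of all genes in expression decile 2 were higher. At an unadjusted p under 0.05, 1 of the 14 was higher and 2 lower (21.4%), against 12.4% of all genes. The glycine receptor gene Glra3 read 7.39, 7.53 and 6.89 in the knockout and 8.06, 7.81 and 7.90 in the wild-type, so that every knockout array lay below every wild-type array. Its log2 fold change of -0.65 (SE 0.15) did not pass the test (limma adjusted p = 0.204). Glra1 read higher, with 5.30, 5.30 and 5.95 in the knockout and 5.24, 4.75 and 4.95 in the wild-type (0.54, SE 0.18, limma adjusted p = 0.330). Glrb, the shared beta subunit, differed by -0.15 (SE 0.07), with 10.61, 10.56 and 10.45 in the knockout just below 10.77, 10.69 and 10.62 in the wild-type. None of 8 genes of inhibitory synapses and GABA supply had an unadjusted p under 0.05. Their median was 0.05.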

How the data were processed

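Per the labels' protocols, total RNA was extracted, purified on columns and labelled as biotinylated cDNA, starting from 100 ng. Affymetrix Expression Console is listed, unversioned, in the submitters' processing notes. Values were deposited on a log2 scale, 1 per probe set and array. How they were summarized and normalized is not given in the labels. The number of arrays limits the precision.

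Probe sets with 1 platform gene symbol (21789) were named, with symbols updated through gene identifiers on GRCm38.p6 (21698 matched). Another 1621 had several symbols and 12147 had none or were not listed, and these were not named. Of several probe sets the one with the highest mean was kept, which left 19938 genes. The receptor genes were compared within a fit of all genes in limma 3.58.1 under R 4.3.3, using lmFit and eBayes without covariates. Benjamini-Hochberg adjustment ran over all genes, with 0.05 as the threshold. The step was tested on simulated data. No 2 arrays were identical.

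The members and all lists were chosen with earlier results of these data known. Values by array are given for genes with non-overlapping groups, the gene with the smallest p in each other class, and Gria2, Gria3 and Gria4. Gria1, Grin3a, Grm5, Chrna6, Chrnb3 and the shown promoters were added after their values were seen. Of each partner list at most the 3 genes with the smallest p were named. The alternatives were filters on dim genes, 3 normalizations, the mean of probe sets or all of them, an intensity trend with robust priors, the replicate number as a block, each array left out, and centring on expression deciles, which was added later.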

Additional observations from a re-analysis of the deposited data

How the results depend on the processing

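No receptor subunit was called under any of the 15 alternatives that gave a test. The lowest adjusted p of a receptor subunit over them was 0.167 (limma), for Gabra3 without wild-type replicate 2. The count at an unadjusted p under 0.05, 5 as reported, was 2 with quantile normalization (10.5% of all genes), 2 with cyclic loess (10.2%; Gabrb1 higher and Grin3a lower, at -0.14) and 2 with the intensity trend and robust priors (13.6%). It was 3 among genes above the 25th percentile of signal (15%) and 0 of 9 among genes above the median signal (17.0%). With 1 array left out it ran from 2 (without knockout replicate 3) to 11 (without knockout replicate 2), against 8.26% to 15.7% of all genes. Non-overlapping genes, 3 as reported, numbered 1 of 31 and 0 of 9 under those 2 filters, where 19.7% and 21.3% of all genes did not overlap. With 1 array left out they numbered 6 to 12, against 24.7% to 33.4% of all genes. The filters test fewer genes, and the cause of the other shifts was not tested.

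The median of all receptor subunits, 0.07, was -0.0467 above the median signal and lay between 0.007 and 0.13 with 1 array left out. That of the metabotropic receptors, 0.18, was 0.0317 above the median signal and lay between 0.11 and 0.24 with 1 array left out. That of the GABA-A receptors, 0.17, lay between 0.11 and 0.24. That of the NMDA receptors, 0.07, lay between -0.0208 and 0.1233 with 1 array left out. Gria3 and Gria4, both within 0.003 of 0, took either sign: Gria3 was at 0.0361 with cyclic loess and 0.0344 with quantile normalization, and between -0.0183 and 0.0117 with 1 array left out, and Gria4 was at -0.01 with arrays centred on their medians and between -0.0383 and 0.0317 with 1 array left out. Chrna2, Grm3, Grm6, Gabrb1, Grid1, Grik1, Grin3b and Gria2 kept their sign in each alternative that held them, while Chrna6, at 0.03, was at -0.21 without knockout replicate 1. Replicate numbers were not used to pair the arrays in the main fit. Deviations of same-numbered arrays correlated at 0.076, 0.019 and -0.009. Knockout replicates 1 and 2 correlated best with the wild-type array of their own number, and knockout replicate 3 with wild-type replicate 2 (0.093). Correlations this small do not settle whether the numbers pair the arrays. With the replicate block 6 of 42 receptor subunits had an unadjusted p under 0.05, against 11.7% of all genes, and 0 were called.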
